A study of Mus musculus with 16 samples.

Results

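The genes described here code for amino acid transporters of 7 solute carrier families (Slc1, Slc3, Slc6, Slc7, Slc36, Slc38 and Slc43). They were taken by symbol, as every row of the count table whose name is 1 of these family names followed by "a" and a number. The rule uses no measured value, but the families were chosen with earlier results of these data known. The rule found 61 of the table's 52997 gene symbols, and each of the 61 had a count in at least 1 library. Of these, 26 reached a mean of 5 CPM (a gene's raw count over its library's total count, on the usual CPM scale) in at least 1 group and are described singly, 20 of them in a Treg group, 18 in whole muscle and 12 in both. The other 35 stayed under that level, with group means of at most 3.60 CPM. Just inside it were Slc7a7 (5.13 CPM in its highest group), Slc3a1 (5.36 CPM) and Slc7a5 (5.71 CPM), and just outside were Slc1a4 (3.60 CPM), Slc6a9 (3.18 CPM) and Slc7a4 (3.10 CPM). By family, the level was reached by 8 of 11 Slc38 genes, 7 of 15 Slc7, 3 of 3 Slc43, 3 of 4 Slc36, 2 of 2 Slc3, 2 of 19 Slc6 and 1 of 7 Slc1 genes. A few of these families' members carry other solutes, such as taurine, creatine or nucleobases.

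The study sequenced polyadenylated RNA of regulatory T cells (Tregs) and of whole skeletal muscle from B6 mice aged 6-8 weeks with (Tg) or without (WT) the mTreg24 T cell receptor transgene, after muscle injury with Ctx (cardiotoxin, which kills muscle fibres and starts repair). The Treg groups, 2 libraries each, were Tg muscle, Tg injured spleen, Tg uninjured spleen, WT muscle and WT spleen, and the whole muscle groups, 3 libraries each, were Tg and WT. All Treg donors carried a Foxp3-GFP reporter, which the labels of the whole muscle mice do not list. Tregs of injured mice were sorted 3 days after injury and whole muscle was taken 8 days after it. The titles give no injury state for the WT spleen, while the series' design text places its sort at day 3 as well. From Tg mice only Tregs bearing the receptor segment Vβ8 were sorted, and from WT mice total Tregs, so genotype and sort gate cannot be told apart. Nothing in the labels says that libraries of a group came from separate mice or whether mice were pooled, so the error in every p-value is the spread from library to library, which may be technical.

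The 10 Treg libraries held 1986700 to 9116800 counts and the 6 whole muscle libraries 5095999 to 7075420. A count of 0 then allows up to 0.329 to 1.51 CPM in Tregs and 0.424 to 0.589 CPM in whole muscle (3 counts, counting error only). Replicate 2 of the WT muscle Tregs stood apart, with the most counts (9116800) and the fewest genes detected (17081 of a range up to 21109), and the WT muscle pair differed most (chi-square over degrees of freedom 28.9). Foxp3, the defining Treg transcription factor, had 1985 and 2125 CPM in Tg muscle Tregs, against 1299 and 1229 CPM in Tg injured spleen Tregs, and 1798 and 1943 CPM in WT muscle Tregs, against 1415 and 1237 CPM in WT spleen Tregs. Summed CPM of 24 genes that respond to tissue dissociation or heat reached 14339 to 15492 in Tg muscle Tregs, against 3380 to 3419 in Tg injured spleen Tregs, and 12270 to 14698 in WT muscle Tregs, against 3282 to 3894 in WT spleen Tregs. In each tissue comparison 18 of these 24 genes (75%) were called higher in muscle and 0 lower. Of all genes tested, 4.83% were called higher and 2.55% lower in Tg, and 9.39% higher and 6.86% lower in WT mice. The part of the 24 genes in the transporter results was not tested.

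Amino acids do not cross the cell membrane unaided. T cells take up glutamine and other neutral amino acids through sodium-coupled carriers such as those of Slc1a5, Slc38a1 and Slc38a2, and exchange part of this pool for leucine and other large amino acids through heterodimers of a heavy chain, Slc3a2 (CD98), and a light chain of the Slc7 family. Cationic amino acids enter through Slc7a1 and Slc7a2, and a further set of carriers sits in the lysosome, where they release or sense amino acids for the growth kinase complex mTORC1. Activated T cells are known for raising such carriers, and starved cells for raising Slc38a2.

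In muscle Tregs of both genotypes, Slc38a2, an importer of neutral amino acids, and Slc3a2, the CD98 heavy chain, were each higher than in splenic Tregs by more than 1 log2 unit. Per kb of exon, Slc3a2 stood beside the glutamine carrier Slc1a5 in muscle Tregs, at 83.7 against 79.1 CPM per kb in Tg and 76.8 against 82.4 CPM per kb in WT mice, and well below it in splenic Tregs, at 44.6 against 97.6 CPM per kb in Tg injured spleen and 42.8 against 81.6 CPM per kb in WT spleen. Slc43a2, a carrier of branched-chain amino acids, and Slc6a6, the taurine carrier, were also higher in muscle Tregs, and Slc7a10, a light chain that pairs with Slc3a2, was detected in every splenic Treg library and almost absent from muscle Tregs. In Tg mice 5 of 23 tested members were called between muscle and injured spleen (4 higher, 1 lower; edgeR's quasi-likelihood test, Benjamini-Hochberg adjusted p under 0.05), which is 21.7% of them, against 7.38% of all 13188 genes tested (4.83% higher and 2.55% lower). In WT mice 6 of 23 were called between muscle and spleen (5 higher, 1 lower), which is 26.1%, against 16.2% of all genes (9.39% higher and 6.86% lower). Without replicate 2 of the WT muscle Tregs the WT log2 fold changes were 1.30 for Slc38a2, 0.91 for Slc3a2 and 0.86 for Slc43a2. They were 2.08 for Slc43a3 and 0.50 for Slc6a6, and Slc7a10 stayed lower in muscle. The other 38 members were too low to be tested in Tregs. All 5 genes called in Tg mice were among the 6 called in WT mice (83.3% of the WT calls). The overlap over all genes was not counted, so this share has no background beside it. The pairs of groups share no library, but 1 fit over all 10 Treg libraries gave both comparisons, with a shared error estimate. An unadjusted p under 0.05 was found for 7 of 23 members in Tg mice, against 20.5% of all genes, and for 8 of 23 in WT mice, against 29.3% of all genes. The members' median log2 fold change was 0.12 in Tg and 0.19 in WT mice, against -0.04 for all genes in each. As bulk RNA was measured, fewer cells of a type and less RNA per cell cannot be told apart.

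**Figure D1:**
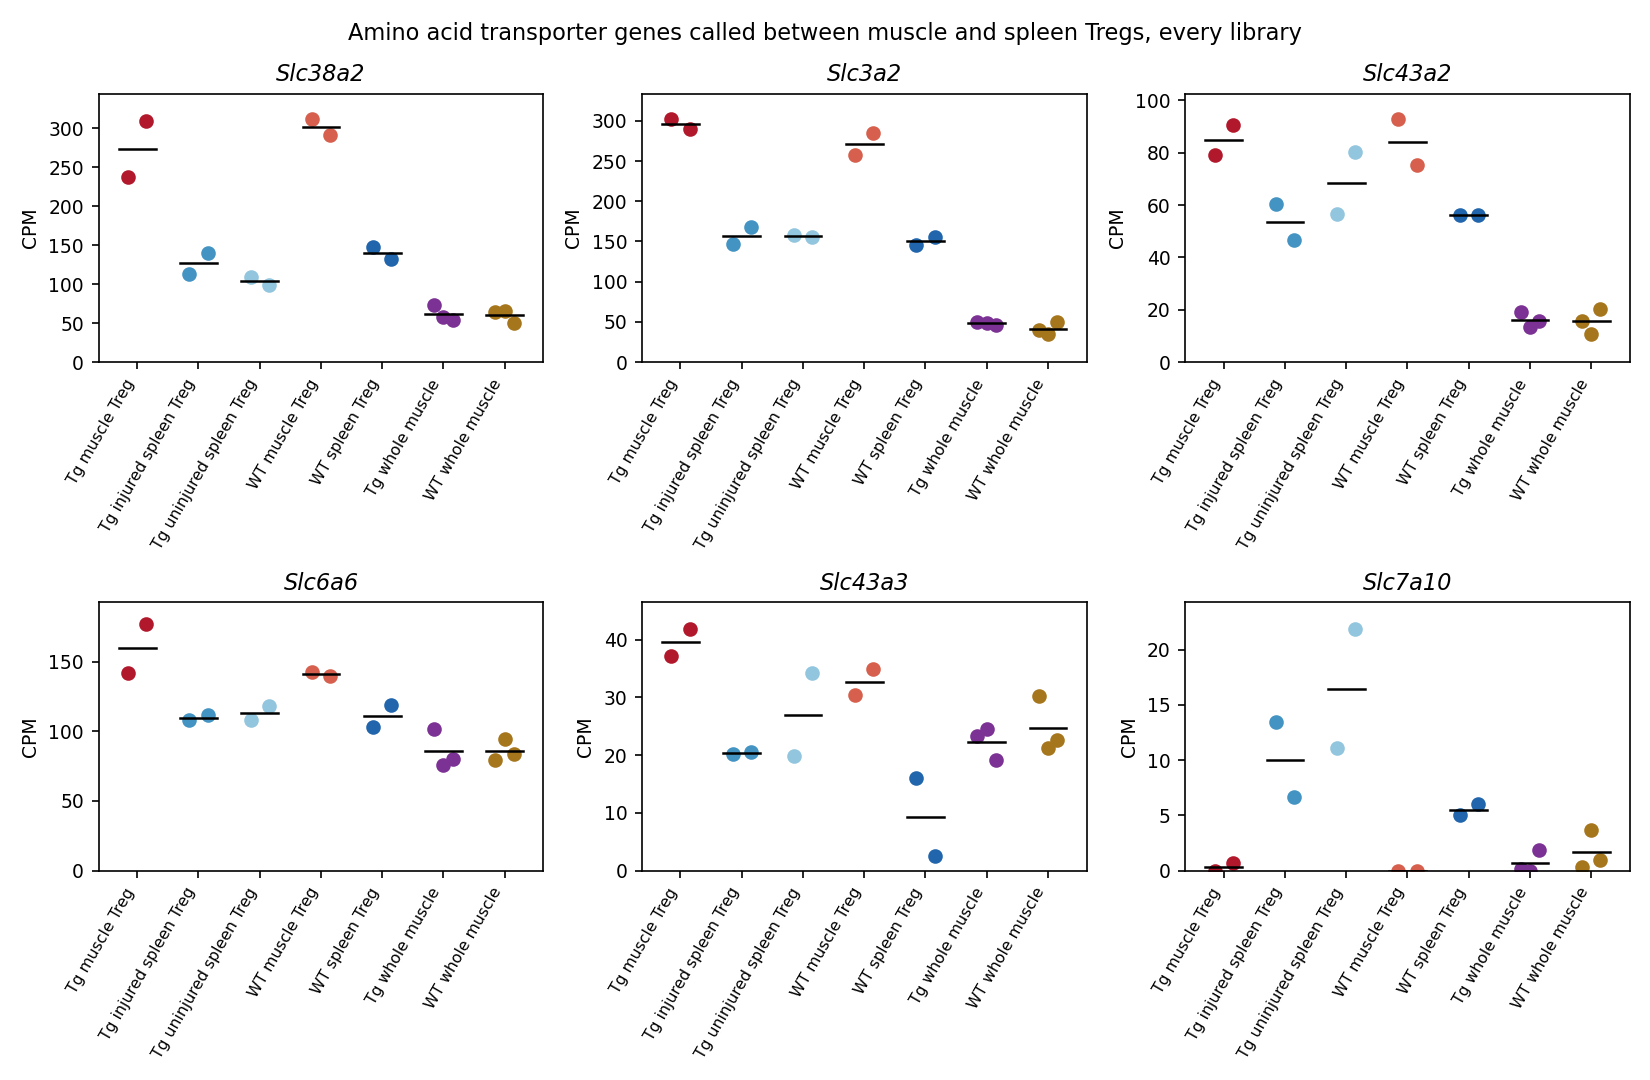
CPM (linear axis from 0) of the 6 transporter genes called in a tissue comparison, with 1 point per library and a line at each group's mean, for 5 Treg groups of 2 libraries and 2 whole muscle groups of 3. Slc38a2 and Slc3a2 are higher in each of the 4 muscle Treg libraries than in each of the 6 splenic ones, and Slc7a10 is at or near 0 in the 4 muscle Treg libraries.

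The promoters of 4 of the 6 called genes, those matched in the RefSeq table of mouse gene starts (GRCm38.p6; for Slc43a2 the first of 2 starts), are shown because these genes were called between tissues in both genotypes, Slc38a2, Slc3a2 and Slc43a2 higher in muscle Tregs and Slc7a10 lower. Each runs 5′ to 3′ on the gene's strand, from 250 bases before an annotated start to 50 after it, and capitals mark motif matches on either strand. The windows are chr15:96699679-96699978 (minus strand) for Slc38a2, chr19:8713848-8714147 (minus strand) for Slc3a2, chr11:75531444-75531743 (plus strand) for Slc43a2 and chr7:35186135-35186434 (plus strand) for Slc7a10.
Slc38a2: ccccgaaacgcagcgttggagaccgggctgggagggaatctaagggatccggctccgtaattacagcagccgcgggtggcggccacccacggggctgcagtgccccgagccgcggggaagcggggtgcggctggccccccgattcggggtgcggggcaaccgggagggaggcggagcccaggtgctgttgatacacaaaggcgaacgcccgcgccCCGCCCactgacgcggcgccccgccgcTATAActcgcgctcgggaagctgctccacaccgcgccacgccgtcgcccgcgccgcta
Slc3a2: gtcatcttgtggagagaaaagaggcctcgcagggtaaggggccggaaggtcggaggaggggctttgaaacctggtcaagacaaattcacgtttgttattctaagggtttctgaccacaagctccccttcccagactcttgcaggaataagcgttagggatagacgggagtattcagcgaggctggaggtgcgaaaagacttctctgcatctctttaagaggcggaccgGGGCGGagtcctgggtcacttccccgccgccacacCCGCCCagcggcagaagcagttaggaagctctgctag
Slc43a2: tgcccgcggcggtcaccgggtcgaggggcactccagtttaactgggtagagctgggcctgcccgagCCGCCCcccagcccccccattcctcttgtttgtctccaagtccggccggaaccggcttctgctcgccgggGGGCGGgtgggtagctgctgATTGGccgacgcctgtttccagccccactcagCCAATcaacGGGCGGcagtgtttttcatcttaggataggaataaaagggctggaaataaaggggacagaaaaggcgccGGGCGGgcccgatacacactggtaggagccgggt
Slc7a10: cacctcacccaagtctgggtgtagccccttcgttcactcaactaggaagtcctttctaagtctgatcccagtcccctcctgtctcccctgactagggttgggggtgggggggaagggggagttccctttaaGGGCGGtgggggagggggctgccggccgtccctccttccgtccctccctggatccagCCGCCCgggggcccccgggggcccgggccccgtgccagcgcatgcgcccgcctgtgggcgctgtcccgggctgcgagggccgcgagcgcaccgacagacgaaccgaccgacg
The motifs searched were the amino acid response element TGATGNAA, the AP-1 site TGANTCA, the cAMP response element TGACGTCA, the E-box CACGTG, the CCAAT box CCAAT, the TATA box TATAA and the GC box GGGCGG. No match overlapped another in these 4 windows. Slc38a2 held a TATA box and a GC box, Slc3a2 held 2 GC boxes, Slc43a2 held 2 CCAAT boxes and 4 GC boxes, and Slc7a10 held 2 GC boxes. These are common letters: 35.7% of all 32851 promoters in the table held a GC box, 37.4% a CCAAT box and 24.9% a TATA box. None of the 4 windows held the amino acid response element, the AP-1 site, the cAMP response element or the E-box, which 3.97%, 7.81%, 1.79% and 7.15% of all promoters held. Introns and other bases outside the windows were not searched, so this does not show that the genes lack these motifs. The bases G and C made up 73.0% of the Slc38a2 window, 56.0% of that of Slc3a2, 63.7% of that of Slc43a2 and 70.7% of that of Slc7a10.

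Among the carriers of glutamine and other small neutral amino acids, Slc1a5 (ASCT2, a sodium-dependent exchanger) had the highest level per kb of exon in every Treg group except Tg muscle, where it was second to Slc3a2. It had 312 and 348 CPM in Tg muscle Tregs, against 416 and 398 CPM in Tg injured spleen Tregs and 361 and 359.9 CPM in Tg uninjured spleen Tregs. Among WT mice it had 374 and 314 CPM in WT muscle Tregs, against 372 and 309 CPM in WT spleen Tregs. All 10 Treg libraries lay within a narrow band, and neither tissue comparison was called: the log2 fold change was -0.10 ± 0.14 in Tg (SE, edgeR adjusted p = 0.737, 95% interval -0.39 to 0.19) and 0.19 ± 0.14 in WT mice (edgeR adjusted p = 0.369, 95% interval -0.10 to 0.48).

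Slc38a2 (SNAT2, a sodium-coupled importer of neutral amino acids; chromosome 15, 96687392 to 96699730, minus strand, mm10, as are all gene positions here, by GENCODE M21) had 237 and 309.8 CPM in Tg muscle Tregs, against 114 and 139 CPM in Tg injured spleen Tregs and 109 and 99.2 CPM in Tg uninjured spleen Tregs. WT mice showed 312 and 292 CPM in WT muscle Tregs, against 147 and 132 CPM in WT spleen Tregs. The lowest muscle library lay well above the highest splenic library in both genotypes. The log2 fold change was 1.31 ± 0.17 in Tg mice (SE, edgeR adjusted p = 0.000147) and 1.29 ± 0.17 in WT mice (edgeR adjusted p = 0.000101). Its close relative Slc38a1 (SNAT1) lies beside it on chromosome 15 and imports much the same amino acids. It had 132 and 104 CPM in Tg muscle Tregs, against 127 and 149 CPM in Tg injured spleen Tregs. WT levels were 127 and 106 CPM in WT muscle Tregs, against 137 and 127 CPM in WT spleen Tregs. The groups overlapped, and the log2 fold change was -0.03 ± 0.17 in Tg (95% interval -0.39 to 0.33) and -0.00 ± 0.17 in WT mice (95% interval -0.36 to 0.35). Per kb of exon, the level of Slc38a2 over that of Slc38a1 was 4.64 ± 1.62 in Tg muscle Tregs, against 1.78 ± 0.0584 in Tg injured spleen Tregs, and 5.08 ± 0.432 in WT muscle Tregs, against 2.06 ± 0.0481 in WT spleen Tregs (SD, n = 2 each).

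Slc38a10, a further member of this family, was abundant and even. It had 176 and 201 CPM in Tg muscle Tregs, against 173 and 184 CPM in Tg injured spleen Tregs. WT levels were 167 and 190.3 CPM in WT muscle Tregs, against 166 and 170.1 CPM in WT spleen Tregs. The log2 fold change was 0.27 ± 0.15 in Tg and 0.28 ± 0.15 in WT mice, with edgeR adjusted p = 0.329 and 0.233. Slc38a6 was low throughout, between 2.63 and 8.27 CPM over the 10 Treg libraries, and was not called.

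Slc3a2 (chromosome 19, 8706882 to 8723369, minus strand), the CD98 heavy chain that carries light chains to the cell surface and binds integrins, had 302 and 289 CPM in Tg muscle Tregs, against 147 and 168 CPM in Tg injured spleen Tregs and 158 and 156 CPM in Tg uninjured spleen Tregs. In WT animals it had 257 and 285 CPM in WT muscle Tregs, against 146 and 156 CPM in WT spleen Tregs. Here too every muscle library lay above every splenic library, and the 6 splenic libraries stayed close together. The log2 fold change was 1.11 ± 0.14 in Tg (SE, edgeR adjusted p = 0.000162) and 1.03 ± 0.14 in WT mice (edgeR adjusted p = 0.000203).

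No light chain gene was called higher in muscle. Slc7a6 (y+LAT2, which exchanges cationic for neutral amino acids) had the highest level per kb of exon among them in Tregs, with 81.04 and 79.98 CPM in Tg muscle Tregs, against 78.3 and 91.95 CPM in Tg injured spleen Tregs. WT levels were 73.3 and 68.7 CPM in WT muscle Tregs, against 84.6 and 97.3 CPM in WT spleen Tregs. Its log2 fold change was 0.12 ± 0.18 in Tg (95% interval -0.27 to 0.50) and -0.18 ± 0.18 in WT mice (95% interval -0.56 to 0.20), and neither was called. Slc7a5 (LAT1, the leucine exchanger usually named as the partner of CD98 in activated T cells) was low in these Tregs. It had 4.83 and 2.70 CPM in Tg muscle Tregs, against 1.92 and 5.67 CPM in Tg injured spleen Tregs. WT levels were 6.05 and 5.37 CPM in WT muscle Tregs, against 2.01 and 9.11 CPM in WT spleen Tregs. The groups overlapped, and at these levels the 95% intervals of the log2 fold change were wide, -1.51 to 1.83 in Tg and -1.44 to 1.72 in WT mice.

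Slc7a7 (y+LAT1) had 1.72 and 5.18 CPM in Tg muscle Tregs, against 2.63 and 1.65 CPM in Tg injured spleen Tregs. WT levels were 2.81 and 4.83 CPM in WT muscle Tregs, against 1.01 and 1.55 CPM in WT spleen Tregs. It was not called (edgeR adjusted p = 0.59 in Tg and 0.206 in WT mice), and its exons share 232 bases with those of Oxa1l on the other strand, at 118 to 141 CPM in the Treg groups, which a library that does not mark strand cannot tell apart. Slc7a8 (LAT2) stayed at or under 1.18 CPM in every Treg library, and Slc7a11, the cystine exchanger, at or under 1.08 CPM.

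Slc7a10 (Asc-1, an exchanger of small neutral amino acids; chromosome 7, 35186385 to 35201114, plus strand) ran the other way. It had 0 and 0.676 CPM in Tg muscle Tregs, against 13.4 and 6.62 CPM in Tg injured spleen Tregs and 11.1 and 21.8 CPM in Tg uninjured spleen Tregs. Its WT levels were 0 and 0 CPM in WT muscle Tregs, against 5.03 and 6.00 CPM in WT spleen Tregs. All 6 splenic libraries held it and 3 of the 4 muscle libraries held no count. The raw counts were 3 in Tg muscle Tregs, against 84 in Tg injured spleen Tregs, 24.4-fold lower in muscle per library total (95% counting interval 8.08 to 121, which leaves out the spread between libraries), and 0 in WT muscle Tregs, against 37 in WT spleen Tregs, at least 11.3-fold lower against a floor of 3 counts per library. Both were called (edgeR adjusted p = 0.0084 in Tg and 0.00133 in WT mice), but without replicate 1 of the Tg injured spleen Tregs the Tg call was lost (edgeR adjusted p = 0.0798), as it was without replicate 1 of the Tg muscle Tregs (edgeR adjusted p = 0.0579). Markers of several other cell types were also lower in muscle Tregs. The summed CPM of 10 B cell genes was 23.8 to 27.9 in Tg muscle Tregs, against 87.4 to 162 in Tg injured spleen Tregs, and 34.2 to 38.8 in WT muscle Tregs, against 72.5 to 145 in WT spleen Tregs. Of 16 macrophage genes the sum was 397 to 426 CPM in Tg muscle Tregs, against 489 to 528 in Tg injured spleen Tregs, and 265 to 446 in WT muscle Tregs, against 439 to 455 in WT spleen Tregs. Erythroid genes summed to 2.76 to 3.83 CPM in Tg muscle Tregs, against 27.1 to 30.7 CPM in Tg injured spleen Tregs, and to 2.85 to 4.76 CPM in WT muscle Tregs, against 70.5 to 101 CPM in WT spleen Tregs. Of the macrophage genes tested, 0 of 14 were called higher and 5 lower in Tg muscle Tregs, and 1 higher and 2 lower in WT muscle Tregs, where the sums overlapped those of spleen. Among these 16 genes, C1qa was at 0 and 0 CPM in Tg muscle Tregs, against 12.9 and 15.4 CPM in Tg injured spleen Tregs. In WT mice C1qa was at 0 and 1.10 CPM in muscle Tregs, against 0.503 and 4.66 CPM in spleen Tregs, which overlapped. Neutrophil genes were higher in muscle Tregs and summed to 14.9 to 21.4 CPM in Tg muscle Tregs, against 3.78 to 4.55 CPM in Tg injured spleen Tregs, and to 6.92 to 19.7 CPM in WT muscle Tregs, against 0.444 to 1.51 CPM in WT spleen Tregs. Genes of CD8 and other lymphocytes summed to 104 to 129.6 CPM in Tg muscle Tregs, against 80.01 to 147 CPM in Tg injured spleen Tregs, which overlapped, and to 24.9 to 28.8 CPM in WT muscle Tregs, against 36.6 to 39.8 CPM in WT spleen Tregs. The sum of 16 genes of muscle fibres and satellite cells was higher in muscle Tregs. It was 535 to 582 CPM in Tg muscle Tregs, against 364 to 468 CPM in Tg injured spleen Tregs. In WT mice it was 280 to 343 CPM in muscle Tregs, against 225.5 to 232 CPM in spleen Tregs. Of the 4 tested, 25% were called higher and 0% lower in Tg, and 25% higher and 50% lower in WT mice (all genes: 4.83% and 2.55% in Tg, 9.39% and 6.86% in WT mice). The part of these other cells in the results was not tested. Exons of Slc7a10 share 377 bases with Lrp3 on the other strand, which was at 0.333 to 3.57 CPM in the Treg group means.

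Per kb of exon, the level of Slc3a2 over the summed level of the light chain genes that pair with it (Slc7a5, Slc7a6, Slc7a7, Slc7a8, Slc7a10 and Slc7a11) was 4.21 ± 0.223 in Tg muscle Tregs, against 1.76 ± 0.137 in Tg injured spleen Tregs. It was 4.20 ± 0.417 in WT muscle Tregs, against 1.77 ± 0.191 in WT spleen Tregs (SD, n = 2 each). The heavy chain gene exceeded its partners' sum in every group, by a wider margin in muscle Tregs than elsewhere. In whole muscle the ratio was 1.75 ± 0.249 in Tg and 1.35 ± 0.287 in WT mice (SD, n = 3 each). Exon lengths took in every annotated exon of a gene, whichever transcripts the cells made. Slc7a6 made up 88.7 ± 2.87% of the light chain sum in Tg muscle Tregs, against 73.8 ± 7.17% in Tg injured spleen Tregs, and 84.9 ± 1.64% in WT muscle Tregs, against 81.9 ± 4.56% in WT spleen Tregs. Slc3a1 (rBAT), the other heavy chain, known from kidney and gut, was at 2.41 and 1.35 CPM in Tg muscle Tregs, against 0.479 and 0.473 CPM in Tg injured spleen Tregs. WT levels were 3.24 and 1.32 CPM in WT muscle Tregs, against 8.05 and 2.67 CPM in WT spleen Tregs, with no call in either comparison. Its exons share 601 bases with Prepl on the other strand, at 11.1 to 21.6 CPM in the Treg group means.

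**Figure D2:**
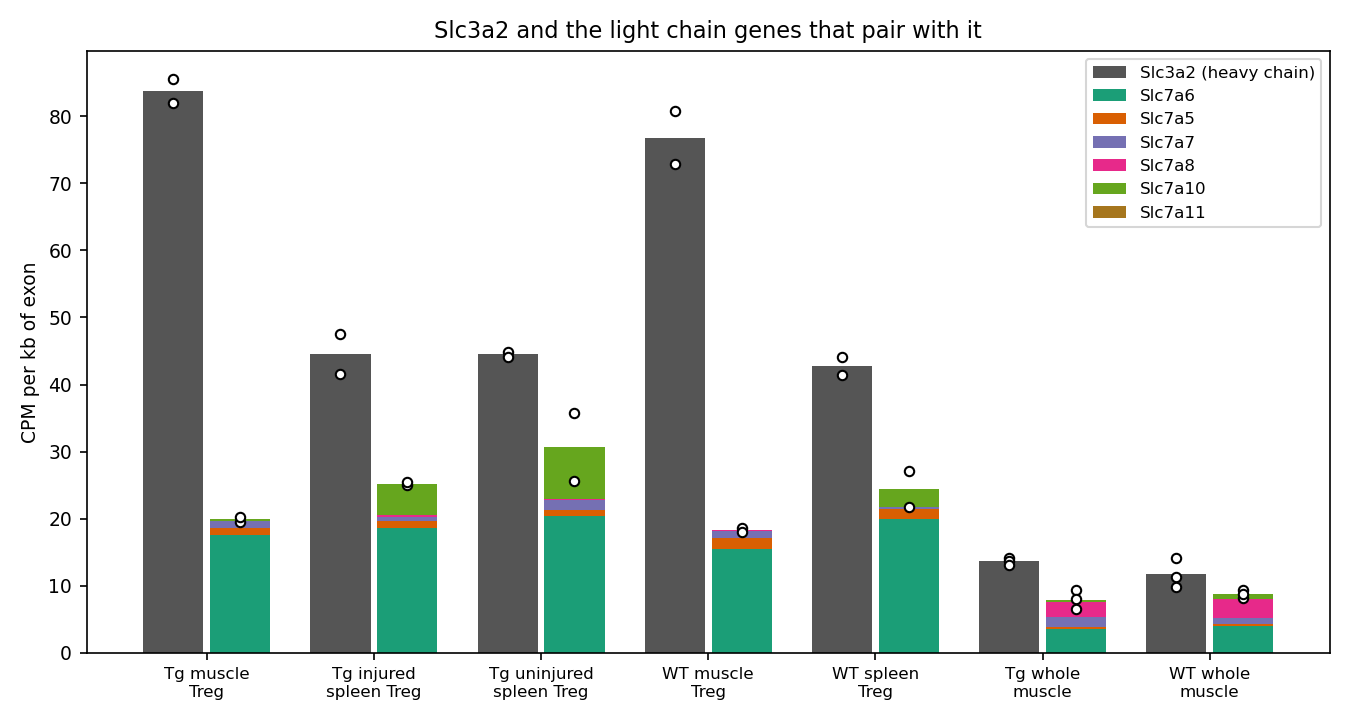
Mean level per kb of exon (CPM per kb, linear axis from 0) of Slc3a2 (grey bars) and of the 6 light chain genes that pair with it (stacked bars), in 7 groups. Points are single libraries (for the stack, their summed light chains). The grey bars of the muscle Treg groups stand at 83.7 (Tg) and 76.8 (WT), those of the spleen groups at 42.8 to 44.6, and Slc7a10 shows as the light green part of the stack in the spleen groups.

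The cationic carrier Slc7a1 (CAT1, which imports arginine, lysine and ornithine) had 61.7 and 51.1 CPM in Tg muscle Tregs, against 42.9 and 54.8 CPM in Tg injured spleen Tregs. WT levels were 61.2 and 26.3 CPM in WT muscle Tregs, against 41.3 and 35.5 CPM in WT spleen Tregs. The spread between WT muscle libraries covered the splenic values, and neither comparison was called (edgeR adjusted p = 0.556 in Tg and 0.54 in WT mice). Slc7a2 (CAT2) was at or under 0.347 CPM in every Treg library.

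In the Slc43 family, Slc43a2 (LAT4, a uniporter of branched-chain and other large neutral amino acids; chromosome 11, 75531694 to 75577575, plus strand) had 78.97 and 90.6 CPM in Tg muscle Tregs, against 60.4 and 46.8 CPM in Tg injured spleen Tregs and 56.5 and 80.3 CPM in Tg uninjured spleen Tregs. In the WT groups it had 92.7 and 75.5 CPM in WT muscle Tregs, against 56.4 and 56.2 CPM in WT spleen Tregs. The muscle and spleen libraries compared did not overlap, although 1 Tg uninjured spleen library reached the muscle range. The log2 fold change was 0.86 ± 0.21 in Tg (SE, edgeR adjusted p = 0.0207) and 0.76 ± 0.21 in WT mice (edgeR adjusted p = 0.0254). Exons of Slc43a2 share 922 bases with Gm45606 on the other strand, at 29.2 to 42.0 CPM in the Treg group means, so part of the reads may belong to either gene. Slc43a1 (LAT3, with much the same substrates) had 5.52 and 0.676 CPM in Tg muscle Tregs, against 14.6 and 9.93 CPM in Tg injured spleen Tregs. WT levels were 14.1 and 5.48 CPM in WT muscle Tregs, against 18.6 and 15.1 CPM in WT spleen Tregs. It was lower in each muscle group without overlap on the CPM scale, and it was not called, with a log2 fold change of -1.89 ± 0.71 in Tg (edgeR adjusted p = 0.133) and -0.64 ± 0.63 in WT mice (edgeR adjusted p = 0.542). Without replicate 1 of the Tg muscle Tregs it was called lower in Tg mice (-3.93, edgeR adjusted p = 0.0172), as with no filter on low counts (-1.90, edgeR adjusted p = 0.0356).

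Slc43a3 (chromosome 2, 84936579 to 84958509, plus strand) carries purine nucleobases rather than amino acids. It had 37.2 and 41.9 CPM in Tg muscle Tregs, against 20.1 and 20.6 CPM in Tg injured spleen Tregs and 19.8 and 34.2 CPM in Tg uninjured spleen Tregs. Among WT mice it had 30.5 and 34.99 CPM in WT muscle Tregs, against 16.1 and 2.44 CPM in WT spleen Tregs. The WT spleen libraries differed widely from each other. The log2 fold change was 1.16 ± 0.54 in Tg (SE, edgeR adjusted p = 0.262) and 2.21 ± 0.61 in WT mice (edgeR adjusted p = 0.0338). Without replicate 2 of the WT spleen Tregs, its lowest library, the WT value was 1.22 (edgeR adjusted p = 0.101), and the call was also lost without either WT muscle library (edgeR adjusted p = 0.0522 and 0.135). In Tg mice Slc43a3 was called higher with no filter on low counts (1.16, edgeR adjusted p = 0.0132) and when only the groups compared were fitted (1.15, edgeR adjusted p = 0.0158). The call in WT mice is not shown to differ from Tg mice: the difference of the tissue effects was -1.05 ± 0.81 (edgeR adjusted p = 0.825).

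Slc6a6 (TauT, the sodium- and chloride-dependent taurine importer; chromosome 6, 91684053 to 91759066, plus strand) had 142 and 177 CPM in Tg muscle Tregs, against 108 and 112 CPM in Tg injured spleen Tregs and 108 and 118 CPM in Tg uninjured spleen Tregs. WT mice showed 142 and 139.9 CPM in WT muscle Tregs, against 103 and 119 CPM in WT spleen Tregs. The 4 muscle libraries lay above the 6 splenic ones by a margin smaller than that of Slc38a2 or Slc3a2. The log2 fold change was 0.74 ± 0.16 in Tg (SE, edgeR adjusted p = 0.0102) and 0.53 ± 0.16 in WT mice (edgeR adjusted p = 0.0385). The creatine carrier Slc6a8 was at 1.39 to 4.79 CPM in Tregs and was not called.

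These folds were fitted with TMM scaling, which places the all-gene median at -0.04 in each tissue comparison. Scaled by library totals alone, as CPM are, the medians were -0.24 in Tg and -0.23 in WT mice. Slc43a2 and Slc6a6 were then no longer called, at log2 fold changes of 0.66 and 0.54 in Tg mice (edgeR adjusted p = 0.0765 and 0.0502) and of 0.58 and 0.34 in WT mice (edgeR adjusted p = 0.087 and 0.159). Slc38a2, Slc3a2 and Slc7a10 remained called in both genotypes. Slc43a2 also lost the Tg call without replicate 2 of the Tg muscle or of the Tg injured spleen Tregs (edgeR adjusted p = 0.134 and 0.231), and the WT call without replicate 1 of the WT muscle or either WT spleen library (edgeR adjusted p = 0.0666 to 0.136). Slc6a6 lost the Tg call without replicate 2 of the Tg muscle or either Tg injured spleen library (edgeR adjusted p = 0.0793 to 0.129), and the WT call without replicate 2 of the WT muscle or either WT spleen library (edgeR adjusted p = 0.0897 to 0.182).

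**Figure D3:**
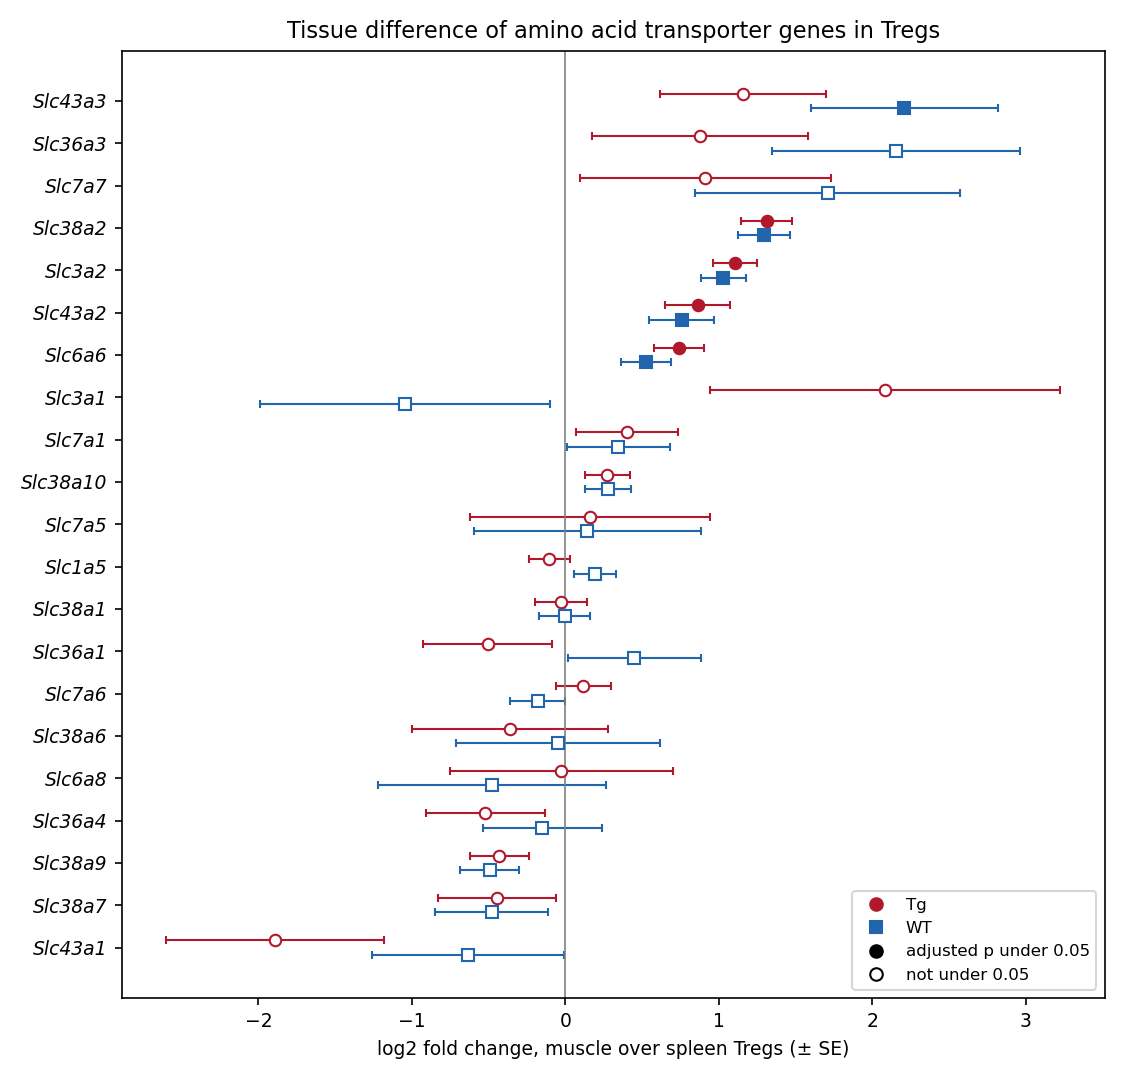
Log2 fold change (muscle over spleen Tregs, edgeR, ± SE derived from its F test) of 21 transporter genes in Tg mice (circles) and WT mice (squares), filled where the adjusted p was under 0.05. Slc7a10 is left out because its muscle libraries were at or near 0. Slc38a2, Slc3a2, Slc43a2 and Slc6a6 are filled in both genotypes, at similar values.

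Of the lysosomal carriers, Slc38a9, the arginine sensor that signals to mTORC1, had 44.5 and 47.5 CPM in Tg muscle Tregs, against 72.8 and 69.5 CPM in Tg injured spleen Tregs and 72.5 and 63.6 CPM in Tg uninjured spleen Tregs. In WT animals it had 51.5 and 41.6 CPM in WT muscle Tregs, against 72.99 and 74.8 CPM in WT spleen Tregs. All 4 muscle libraries lay below all 6 splenic libraries on the CPM scale. Neither comparison was called, with log2 fold changes of -0.43 ± 0.19 in Tg (edgeR adjusted p = 0.223) and -0.49 ± 0.19 in WT mice (edgeR adjusted p = 0.0975). Under library totals alone the WT value was -0.67 and was called (edgeR adjusted p = 0.0287). Slc38a7 (SNAT7, which releases glutamine from lysosomes) had 11.4 and 11.5 CPM in Tg muscle Tregs, against 22.5 and 13.2 CPM in Tg injured spleen Tregs. WT levels were 16.2 and 17.4 CPM in WT muscle Tregs, against 30.2 and 23.8 CPM in WT spleen Tregs. Its log2 fold change was -0.44 ± 0.38 in Tg and -0.48 ± 0.37 in WT mice, and neither was called.

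The proton-coupled carriers of the Slc36 family were low. Slc36a1 (PAT1) had 11.03 and 9.46 CPM in Tg muscle Tregs, against 16.5 and 16.8 CPM in Tg injured spleen Tregs. WT levels were 8.43 and 11.6 CPM in WT muscle Tregs, against 9.56 and 7.55 CPM in WT spleen Tregs. Slc36a4 (PAT4) had 11.4 and 13.1 CPM in Tg muscle Tregs, against 17.01 and 23.4 CPM in Tg injured spleen Tregs. WT levels were 12.5 and 12.5 CPM in WT muscle Tregs, against 15.6 and 15.99 CPM in WT spleen Tregs. Neither was called in either genotype. Slc36a3 had 6.90 and 5.41 CPM in Tg muscle Tregs, against 4.31 and 3.31 CPM in Tg injured spleen Tregs and 1.73 and 0.809 CPM in Tg uninjured spleen Tregs. WT levels were 5.19 and 3.95 CPM in WT muscle Tregs, against 1.51 and 0.888 CPM in WT spleen Tregs. Its muscle libraries lay above the spleen libraries compared, and it was not called, with log2 fold changes of 0.88 ± 0.70 in Tg (edgeR adjusted p = 0.539) and 2.15 ± 0.81 in WT mice (edgeR adjusted p = 0.0846).

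Added over all 61 members, the level was 1741 ± 88.8 CPM in Tg muscle Tregs, against 1506 ± 42.9 CPM in Tg injured spleen Tregs and 1447 ± 51.8 CPM in Tg uninjured spleen Tregs (SD, n = 2 each). In WT mice it was 1714 ± 95.5 CPM in muscle Tregs, against 1414 ± 55.01 CPM in spleen Tregs. Slc38a2 and Slc3a2 together made up 32.7 ± 0.775% of this sum in Tg muscle Tregs, against 18.8 ± 1.66% in Tg injured spleen Tregs, and 33.5 ± 2.17% in WT muscle Tregs, against 20.6 ± 0.53% in WT spleen Tregs. Without them the sums were 1172 ± 46.3 CPM in Tg muscle Tregs, against 1222 ± 9.92 CPM in Tg injured spleen Tregs, and 1141 ± 101 CPM in WT muscle Tregs, against 1124 ± 51.2 CPM in WT spleen Tregs. These sums follow the most abundant members and compare raw CPM, without TMM scaling.

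Whether the tissue differences depended on the receptor transgene was tested by the difference of the tissue effects, Tg minus WT. No member was called by edgeR or DESeq2, and 0 of 23 had an unadjusted edgeR p under 0.05, where 0.136% of all genes were called (0.0531% higher and 0.0834% lower) and 7.94% had such a p. Without replicate 1 of the WT muscle Tregs, which leaves the library that stood apart alone in its group, 241 genes were called in place of 18, and 0 members. The difference was 0.02 ± 0.23 for Slc38a2 (95% interval -0.48 to 0.52) and 0.08 ± 0.20 for Slc3a2 (95% interval -0.35 to 0.51), and 0.11 ± 0.30 for Slc43a2 and 0.21 ± 0.23 for Slc6a6 (log2, SE). Over all 23 tested members it ran from -2.24 to 3.13, and 18 had a tissue effect of the same sign in both genotypes.

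Within muscle, Tg against WT Tregs, no member was called by either tool (0.318% of all genes by edgeR), and 2 of 23 had an unadjusted edgeR p under 0.05, against 8.74% of all genes. Without replicate 1 of the WT muscle Tregs 361 genes were called in place of 42, and 0 members. The members with such a p were Slc43a1, at 5.52 and 0.676 CPM in Tg muscle Tregs, against 14.1 and 5.48 CPM in WT muscle Tregs, and Slc7a10, where 3 counts in Tg stood against 0 in WT. Within spleen, Tg injured against WT Tregs, no member was called (1.3% of all genes by edgeR, 0.887% higher) and 2 of 23 had such a p, against 10.8% of all genes. They were Slc3a1, at 0.479 and 0.473 CPM in Tg injured spleen Tregs, against 8.05 and 2.67 CPM in WT spleen Tregs, and Slc36a1, at 16.5 and 16.8 CPM in Tg injured spleen Tregs, against 9.56 and 7.55 CPM in WT spleen Tregs. Slc43a3 was called higher in Tg injured spleen when replicate 1 of the WT spleen Tregs was left out (3.04, edgeR adjusted p = 0.00704). With the sort gate differing between genotypes, these values compare gated Vβ8 Tregs with total Tregs.

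Between Tg injured and Tg uninjured spleen Tregs no member was called (0 of 23 with an unadjusted edgeR p under 0.05), in a comparison where 0% of all genes were called by edgeR and 1.79% had such a p. DESeq2 called 0 members too. For Slc38a2 the log2 fold change was 0.25 ± 0.17 (95% interval -0.11 to 0.61), and for Slc3a2 it was -0.03 ± 0.14 (95% interval -0.33 to 0.28).

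Whole muscle at day 8 shared many carriers with the sorted Tregs and held some that were absent or low in Tregs. Of the members, 12 reached 5 CPM in both a Treg and a whole muscle group. Slc3a2, Slc38a2 and Slc38a10 averaged 206, 189 and 175 CPM over the 10 Treg libraries. Over the 6 whole muscle libraries they averaged 44.9, 60.8 and 60.5 CPM. Per kb of exon the highest member in whole muscle was Slc38a4 (SNAT4), at 19.6 CPM per kb in Tg and 21.9 CPM per kb in WT muscle. It had 101, 71.5 and 77.5 CPM in Tg and 116, 86.1 and 78.3 CPM in WT muscle and no count in any of the 10 Treg libraries. The taurine carrier Slc6a6 had 102, 76.00 and 80.00 CPM in Tg and 79.4, 94.2 and 83.4 CPM in WT muscle. Slc7a2, with 45.4, 40.8 and 36.04 CPM in Tg and 54.98, 37.5 and 48.7 CPM in WT muscle, and the creatine carrier Slc6a8, with 43.9, 45.5 and 41.3 CPM in Tg and 43.1, 30.8 and 41.2 CPM in WT muscle, were near 0 or low in Tregs. Slc7a8 had 9.19 to 14.6 CPM over the 6 whole muscle libraries. Slc1a5 and Slc7a1 were scarcer in whole muscle: Slc1a5 averaged 33.9 CPM over the 6 whole muscle libraries and 356 CPM over the 10 Treg libraries, and Slc7a1 averaged 3.10 CPM and 44.6 CPM. Day, input and cell content all differ between these kinds of sample, and no test was made across them.

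**Figure D4:**
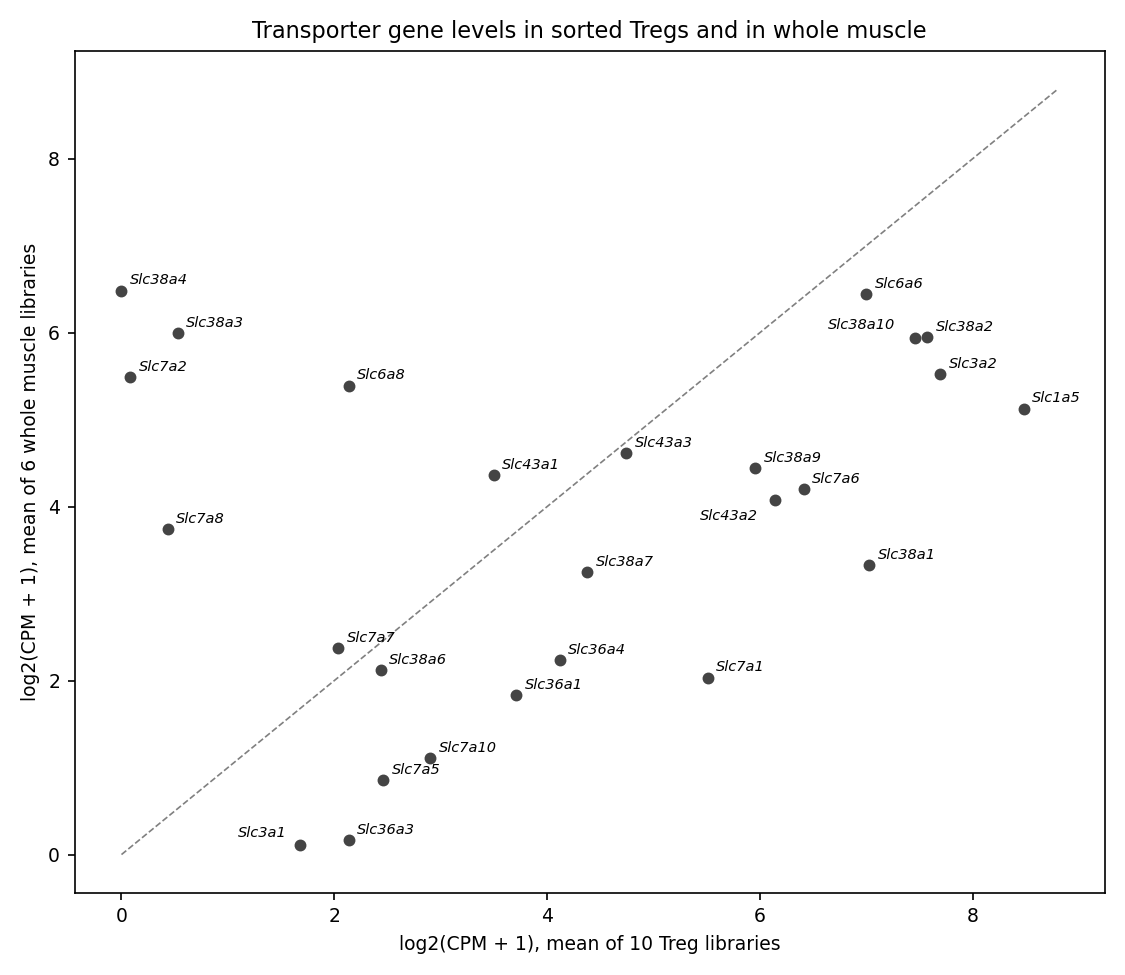
Mean level of the 26 members over the 10 Treg libraries (horizontal axis) and the 6 whole muscle libraries (vertical axis), both as log2(CPM + 1), with a dashed line of equal level. Slc38a4, Slc38a3, Slc7a2, Slc6a8 and Slc7a8 lie in the upper left, at low Treg levels, and Slc1a5, Slc38a1 and Slc7a1 well below the line.

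Between Tg and WT whole muscle, no member of 28 tested was called by edgeR or DESeq2, where edgeR called 0.0323% of all 12377 genes, and 2 had an unadjusted edgeR p under 0.05, against 4.83% of all genes. Slc38a3 (SNAT3, a glutamine carrier of muscle and liver) had 54.3, 48.9 and 50.3 CPM in Tg muscle, against 71.3, 66.2 and 85.9 CPM in WT muscle. The groups did not overlap, and the log2 fold change was -0.57 ± 0.15 (SE, edgeR adjusted p = 0.791). Slc7a4, an Slc7 gene without a settled substrate, had 2.79, 2.77 and 2.97 CPM in Tg muscle, against 0.434, 1.92 and 0.196 CPM in WT muscle, near the floor of detection in 2 of the 3 WT libraries. Slc38a2 and Slc3a2 differed by 0.01 ± 0.15 and 0.19 ± 0.17 (log2, SE), within their error. The summed level of 16 macrophage markers was 1701 to 2194 CPM in Tg muscle, against 592 to 1698 CPM in WT muscle, beside Slc7a7 at 8.88, 3.54 and 2.97 CPM in Tg muscle, against 2.31, 1.77 and 5.69 CPM in WT muscle, and the part of those cells was not tested.

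Genes that use or sense the carried amino acids were read from lists in the same fits, against 4.83% of all genes called higher and 2.55% lower in Tg, and 9.39% higher and 6.86% lower in WT mice. Of 22 tested genes of the integrated stress response, which amino acid shortage can start, 3 were called higher in Tg (13.6%) and 4 in WT muscle Tregs (18.2%), and 0 lower. Atf4, its central transcription factor, had 207 and 187 CPM in Tg muscle Tregs, against 142 and 125 CPM in Tg injured spleen Tregs (log2 fold change 0.75 ± 0.15, edgeR adjusted p = 0.00446). In WT mice Atf4 had 224 and 195 CPM in WT muscle Tregs, against 135 and 126 CPM in WT spleen Tregs (0.86 ± 0.15, edgeR adjusted p = 0.00101). Asns, which makes asparagine, was called in WT mice, with 4.97 and 7.24 CPM in WT muscle Tregs, against 1.01 and 0.666 CPM in WT spleen Tregs (3.10 ± 0.84, edgeR adjusted p = 0.0214). Ppp1r15a, which reverses the block on translation, had 869 and 770.1 CPM in Tg muscle Tregs, against 51.5 and 40.4 CPM in Tg injured spleen Tregs (4.35 ± 0.26, edgeR adjusted p = 1.6e-06). WT levels were 634 and 859 CPM in WT muscle Tregs, against 95.1 and 57.3 CPM in WT spleen Tregs (3.51 ± 0.25, edgeR adjusted p = 4.7e-06). It and the other called gene, Atf3, also stand on the list of dissociation and heat genes given above. The serine synthesis gene Phgdh was not called, at 137 and 125 CPM in Tg muscle Tregs, against 153 and 128 CPM in Tg injured spleen Tregs. The list's median log2 fold change was 0.34 in Tg and 0.46 in WT mice, against -0.04 for all genes.

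For glutamine and aspartate use, 1 of 18 tested genes was called higher in Tg (5.56%) and 2 in WT muscle Tregs (11.1%), near the shares of all genes. The second in WT mice was Asns, given above. The aspartate aminotransferase Got1 had 119 and 132 CPM in Tg muscle Tregs, against 42.4 and 37.6 CPM in Tg injured spleen Tregs (log2 fold change 1.85 ± 0.19, edgeR adjusted p = 2.0e-05). WT levels were 163 and 141 CPM in WT muscle Tregs, against 59.9 and 45.1 CPM in WT spleen Tregs (1.73 ± 0.19, edgeR adjusted p = 2.7e-05). The 4 libraries of muscle Tregs lay far above those of spleen. For arginine and tryptophan use, 1 of 9 was called higher in Tg (11.1%) and 2 in WT mice (22.2%), the second being Ass1, an enzyme of arginine synthesis. Odc1, which starts polyamine synthesis from ornithine, had 189 and 166 CPM in Tg muscle Tregs, against 18.4 and 17.3 CPM in Tg injured spleen Tregs (3.50 ± 0.22, edgeR adjusted p = 1.7e-07). WT levels were 116 and 110.1 CPM in WT muscle Tregs, against 15.1 and 18.4 CPM in WT spleen Tregs (2.91 ± 0.23, edgeR adjusted p = 8.3e-07).

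Genes of branched-chain amino acid breakdown gave 0 of 20 called higher and 4 lower in WT mice (20% against 6.86% of all genes), and 0 were called in Tg mice by edgeR, where 6 had an unadjusted p under 0.05 (30% against 20.5% of all genes). The called genes were Aldh6a1, Bckdhb, Pcca and Mccc1. Pcca, a subunit of propionyl-CoA carboxylase, had 16.00 and 11.5 CPM in WT muscle Tregs, against 31.7 and 39.98 CPM in WT spleen Tregs (log2 fold change -1.22 ± 0.32, edgeR adjusted p = 0.0183). The list's median was -0.37 in Tg and -0.33 in WT mice. For amino acid sensing by mTORC1, 1 of 38 was called higher and 1 lower in Tg mice, and 1 higher and 4 lower in WT mice. These are 5.26% and 13.2% of the list, below the 7.38% and 16.2% of all genes called. Tfeb was the gene called higher in Tg mice and Lamtor5 in WT mice, and those called lower were Sesn1 in both, with Sesn3, Nprl3 and Wdr24 in WT mice. Sesn1, a sestrin that restrains mTORC1, had 158 and 194 CPM in Tg muscle Tregs, against 359 and 408 CPM in Tg injured spleen Tregs (-0.92 ± 0.16, edgeR adjusted p = 0.00209). WT levels were 204 and 248 CPM in WT muscle Tregs, against 394 and 461 CPM in WT spleen Tregs (-0.73 ± 0.16, edgeR adjusted p = 0.00639). The median was -0.08 in Tg and 0.08 in WT mice, with opposite signs in the genotypes.

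For cystine and glutathione, 1 of 14 tested genes was called higher and 1 lower in Tg, and 2 higher (Txnrd1 and Txn1) and 1 lower in WT mice. These are 14.3% and 21.4% of the list, against 7.38% and 16.2% of all genes. Txnrd1, a thioredoxin reductase, had 62.8 and 60.8 CPM in Tg muscle Tregs, against 32.6 and 40.4 CPM in Tg injured spleen Tregs (log2 fold change 0.96 ± 0.23, edgeR adjusted p = 0.0185). WT levels were 63.1 and 73.7 CPM in WT muscle Tregs, against 34.2 and 34.6 CPM in WT spleen Tregs (1.18 ± 0.23, edgeR adjusted p = 0.00295). Hmox1, the haem-degrading enzyme, had 9.31 and 8.11 CPM in Tg muscle Tregs, against 30.4 and 27.4 CPM in Tg injured spleen Tregs (-1.54 ± 0.41, edgeR adjusted p = 0.0314). WT levels were 6.05 and 3.18 CPM in WT muscle Tregs, against 20.6 and 13.5 CPM in WT spleen Tregs (-1.73 ± 0.42, edgeR adjusted p = 0.0125).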

How the data were processed

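RNA of 10 sorted Treg libraries and 6 whole muscle libraries of mice was analysed, in 7 groups. The authors deposited 1 table of raw counts per gene symbol, made with STAR 2.5.4 and featureCounts on mm10, per the submitters' processing notes; the strand setting is not given in the sources used here. CPM were computed here from these counts and the library totals, and CPM per kb with exon lengths of GENCODE M21, to which all 61 members matched.

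Tests were fitted on all genes passing filterByExpr, 13188 in Tregs (1 fit over 5 groups) and 12377 in whole muscle, with edgeR 4.0.16 in R 4.3.3 (TMM scaling, robust quasi-likelihood F test, Benjamini-Hochberg adjustment over all genes tested, called at an adjusted p under 0.05). DESeq2 1.42.0, another scaling, other filters, a replicate block and fits without each library were alternatives. Replicates of 1 group differed beyond counting noise (chi-square over degrees of freedom 5.47 to 28.9).

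The members and lists were chosen with earlier results of these data known. Members at a mean of 5 CPM or more in any group were described singly. From the other lists, the text names genes out of those fixed by rule: in each tissue comparison the 4 called genes with the largest change and the 2 uncalled genes with the highest CPM. Marker genes of the sorted and other cells are named beside them, and Wdr24, outside this rule, was named after its values were seen. Promoters came from RefSeq (43 of 61 members matched, 18 of the 26).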

Additional observations from a re-analysis of the deposited data

How the results depend on the processing

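Slc38a2 and Slc3a2 were called higher in muscle Tregs under all 12 alternatives in each genotype, with log2 fold changes of 1.10 to 1.49 and 0.91 to 1.21 in Tg mice and of 1.11 to 1.38 and 0.84 to 1.16 in WT mice. Slc7a10 was called under 12 alternatives in WT and 10 in Tg mice, and Slc43a2, Slc6a6 and Slc43a3 less often, at 9, 8 and 2 of 12 in Tg and 7 each in WT mice. Of the members, 6 were called in WT mice, against 3 when only the groups compared were fitted and 3 to 4 when 1 library was left out (3 without replicate 2 of the WT spleen Tregs). All genes called fell alike, with 2143 of 13188 in the first fit, 1046 of 11991 with only the groups compared and 887 of 14191 without replicate 2 of the WT spleen Tregs. In Tg mice 5 were called, against 3 with library totals only and 3 to 5 when 1 library was left out (3 without replicate 2 of the Tg muscle Tregs or either Tg injured spleen library). All genes called were 973 in that first Tg fit, 1115 with library totals only and 452 to 640 when 1 library was left out. Between Tg injured and WT spleen 0 members were called, against 1, Slc43a3, with no filter on low counts. All genes called there were 172 of 13188 in the first fit and 372 of 33780 with no filter. Without replicate 1 of the WT spleen Tregs the log2 fold change of Slc43a3 was 3.04. In no alternative did a called member change sign. Deviations of same-numbered Treg libraries from their group means correlated at -0.0718 to 0.155. With 2 libraries a group, whose deviations mirror each other, this cannot show whether replicate numbers pair the samples. A fit with the replicate block called 5 members in WT mice, without Slc43a3 (2.23, edgeR adjusted p = 0.0507), 5 in Tg mice and 0 in every other comparison. Of all 13188 genes it called 2076 in WT mice, 1009 in Tg mice and 0 to 178 in the other Treg comparisons. In whole muscle it called 2 of 12377 genes. Where leaving out a library left 1 in its group, that library was assumed to vary like the other groups. Depth limits the genes near the floor, such as Slc7a5 and Slc7a7, for which intervals were wide.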

Other observations

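Amino acid carriers outside these families were read from a list of 13 tested genes, of which 1 was called higher and 1 lower in muscle Tregs of each genotype, 15.4% against 7.38% of all genes in Tg and 16.2% in WT mice. Slc15a3, a lysosomal carrier of histidine and small peptides, had 91.7 and 68.9 CPM in Tg muscle Tregs, against 6.95 and 14.2 CPM in Tg injured spleen Tregs (log2 fold change 3.12 ± 0.51, edgeR adjusted p = 0.00346). WT levels were 43.5 and 93.2 CPM in WT muscle Tregs, against 2.01 and 4.44 CPM in WT spleen Tregs (4.46 ± 0.59, edgeR adjusted p = 0.000599). Sfxn3, a mitochondrial serine carrier, had 123 and 112 CPM in Tg muscle Tregs, against 191 and 190.3 CPM in Tg injured spleen Tregs (-0.50 ± 0.15, edgeR adjusted p = 0.0499). WT levels were 116 and 124 CPM in WT muscle Tregs, against 219 and 204 CPM in WT spleen Tregs (-0.63 ± 0.14, edgeR adjusted p = 0.00827). The list's median log2 fold change was -0.36 in Tg and -0.01 in WT mice, against -0.04 for all genes in each.

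The aminoacyl-tRNA synthetases, which load amino acids onto their tRNAs, showed 1 of 20 tested genes called higher in Tg mice, near the 4.83% of all genes, and 0 in WT mice by edgeR, where 2 had an unadjusted p under 0.05 in each. The called gene, Eprs, which loads glutamate and proline, had 161 and 140.1 CPM in Tg muscle Tregs, against 123 and 113 CPM in Tg injured spleen Tregs (0.55 ± 0.15, edgeR adjusted p = 0.041). Of 19 tested genes of serine, glycine and folate use, 0 were called in Tg mice by edgeR (2 with an unadjusted p under 0.05) and 1 was called lower in WT mice, 5.26% against 6.86% of all genes. That gene, Mthfd1, a folate enzyme, had 35.7 and 38.2 CPM in WT muscle Tregs, against 92.1 and 74.6 CPM in WT spleen Tregs (-0.98 ± 0.21, edgeR adjusted p = 0.00623).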
